A study of Mus musculus with 10 samples.

Results

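The exocyst genes were read out in cultured adipose stem and precursor cells (ASPCs) of wild-type mice, treated for 6 hr with 100 nM FICZ, a tryptophan photoproduct that binds the aryl hydrocarbon receptor (AHR), or with its vehicle DMSO. The members were the 9 rows of the count table with the symbols Exoc1, Exoc2, Exoc3, Exoc4, Exoc5, Exoc6, Exoc6b, Exoc7 and Exoc8, of 25229 rows in all, and all 9 passed the filter on low counts that left 14251 genes. They were chosen by symbol, but the set was selected with the FICZ and DMSO values of Exoc3 in view, so the contrast of FICZ and DMSO is given for the subunits as a description and not as a test. The question was whether Exoc3, which lies next to the AHR target gene Ahrr, was higher after FICZ without the other subunits. Cells negative for CD45 and CD31 and positive for PDGFRA had been sorted from the stromovascular fraction of perigonadal white adipose tissue (gWAT), grown to confluence without passaging and then treated. There were 5 DMSO and 5 FICZ libraries, numbered 1 to 5 in each group, with total counts between 38328611 and 50210111. The sources used here do not say whether a number stands for an animal or a culture, so the errors given measure the spread between these samples, which may be technical.

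The exocyst is a tethering complex that holds secretory vesicles at the plasma membrane before their membranes fuse. It is built of a pair of subcomplexes of 4 subunits each, the first with Exoc1 to Exoc4 and the second with Exoc5 to Exoc8, in which Exoc6 and Exoc6b are alternative subunits, and small GTPases of the Rab and Ral families, among others, direct it. In adipocytes it is known for the tethering of vesicles that carry the glucose transporter GLUT4. AHR is a transcription factor that a ligand moves into the nucleus, where with its partner ARNT it binds DNA at a core of the letters GCGTG, and Ahrr encodes a repressor that competes with it.

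Exoc3 is at chr13:74169488-74208732 and Ahrr at chr13:74211118-74292331 in GRCm38 (mm10), both on the minus strand. Transcription of Ahrr therefore runs towards Exoc3. The gap between their annotated ends is 2385 bases with 0 genes in it, the start sites are 83599 bases apart, and 0 annotated transcripts cover both genes. The promoter windows of both genes, from 250 bases before to 50 bases after the start, were read from RefSeq (GRCm38.p6). They are printed 5′ to 3′ on the minus strand because Ahrr is the AHR target beside Exoc3, and the capitals mark GCGTG, searched on both strands (CACGC on the other strand). The Ahrr window is chr13:74292282-74292581 and the Exoc3 window is chr13:74208651-74208950.
Ahrr: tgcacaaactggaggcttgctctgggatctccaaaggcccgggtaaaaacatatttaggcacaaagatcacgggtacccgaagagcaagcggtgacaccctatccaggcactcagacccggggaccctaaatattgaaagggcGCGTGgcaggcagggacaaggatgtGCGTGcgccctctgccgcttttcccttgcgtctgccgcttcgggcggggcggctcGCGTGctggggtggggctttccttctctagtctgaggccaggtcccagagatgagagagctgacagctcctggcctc
Exoc3: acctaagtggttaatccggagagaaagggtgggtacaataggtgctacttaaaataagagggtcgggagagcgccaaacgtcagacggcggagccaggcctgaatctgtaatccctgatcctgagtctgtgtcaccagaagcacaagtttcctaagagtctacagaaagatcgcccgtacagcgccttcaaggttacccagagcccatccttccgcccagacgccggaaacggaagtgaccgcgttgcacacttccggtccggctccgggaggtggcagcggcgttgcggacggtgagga
The Ahrr window held 3 matches, at 107, 82 and 27 bases before the start. Of 32851 RefSeq promoter windows of the same length, 32.4% held at least 1 match and 3.91% held at least 3. The GC content of the Ahrr window is 60.3%, and of the windows with a GC content of 60 to 70%, 9.51% held at least 3. The Exoc3 window held 0 matches although it has 22 CG steps and a GC content of 57.0%, and of the windows with a GC content of 50 to 60%, 33.3% held a match. The windows of Exoc4, Exoc5 and Exoc6 also held 0, and those of Exoc6b, Exoc7 and Exoc8 held 1 each. Exoc1 had 1 match in each of its 4 overlapping windows, and Exoc2 had 1 in one start's window and 0 in the other's. A match is a description of letters, not a binding site, and its absence says only that the letters are not in that window.

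Exoc3, the Sec6 subunit of the first subcomplex, which also binds the SNARE proteins of the fusion machinery, was at 89.2, 93.8, 91.3, 90.6 and 70.1 CPM (counts scaled to a common library size by TMM factors) in DMSO 1 to 5. In FICZ 1 to 5 it was at 121, 121, 102.5, 112 and 120 CPM. Every FICZ library was above every DMSO library. The highest DMSO and the lowest FICZ value were less than 10 CPM apart, and the low value of DMSO 5 stood apart from the other four. The raw counts were 3403, 4669, 3986, 3934 and 3416 in DMSO and 5183, 5716, 4065, 4863 and 5211 in FICZ. The mean went from 87.0 ± 9.59 CPM with vehicle to 115.5 ± 8.25 CPM with FICZ (SD, n = 5 per group), a difference of 28.5 CPM and a fitted ratio of 1.33. The log2 fold change was 0.41 (SE 0.0919, 95% interval 0.21 to 0.61), and between same-numbered libraries the log2 difference was 0.44, 0.37, 0.17, 0.31 and 0.78 for pairs 1 to 5. Without DMSO 5 the log2 fold change was 0.34. In bulk RNA, more transcript per cell and more cells that carry the transcript cannot be told apart.

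None of the other subunits separated the groups. Among all genes tested, 0.351% had every FICZ library above every DMSO library and 0.119% had every FICZ library below. Higher values with FICZ in all 5 same-numbered pairs, which Exoc3 also had, were found for 4.32% of genes, and lower values in all pairs for 2.81%. In edgeR's quasi-likelihood fit 0 of the 9 subunits had an adjusted p at or under 0.05 over all genes, where 3 genes or 0.0211% did, and 1 of the 9, Exoc3, had an unadjusted p at or under 0.05, as 4.82% of genes did. DESeq2, DESeq2 with the replicate number as a block, limma-voom and edgeR with the block also called 0 of the 9. Of the 14251 genes they called 14, 25, 3 and 8, in this order. In a set of 9 genes, counts of 0 are near these shares. The adjusted p of Exoc3 was 0.937 in edgeR. By unadjusted p it was number 13 of 14251 genes, or number 60 with the replicate block, and 315 genes (2.21%) had a larger log2 fold change.

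**Figure D1:**
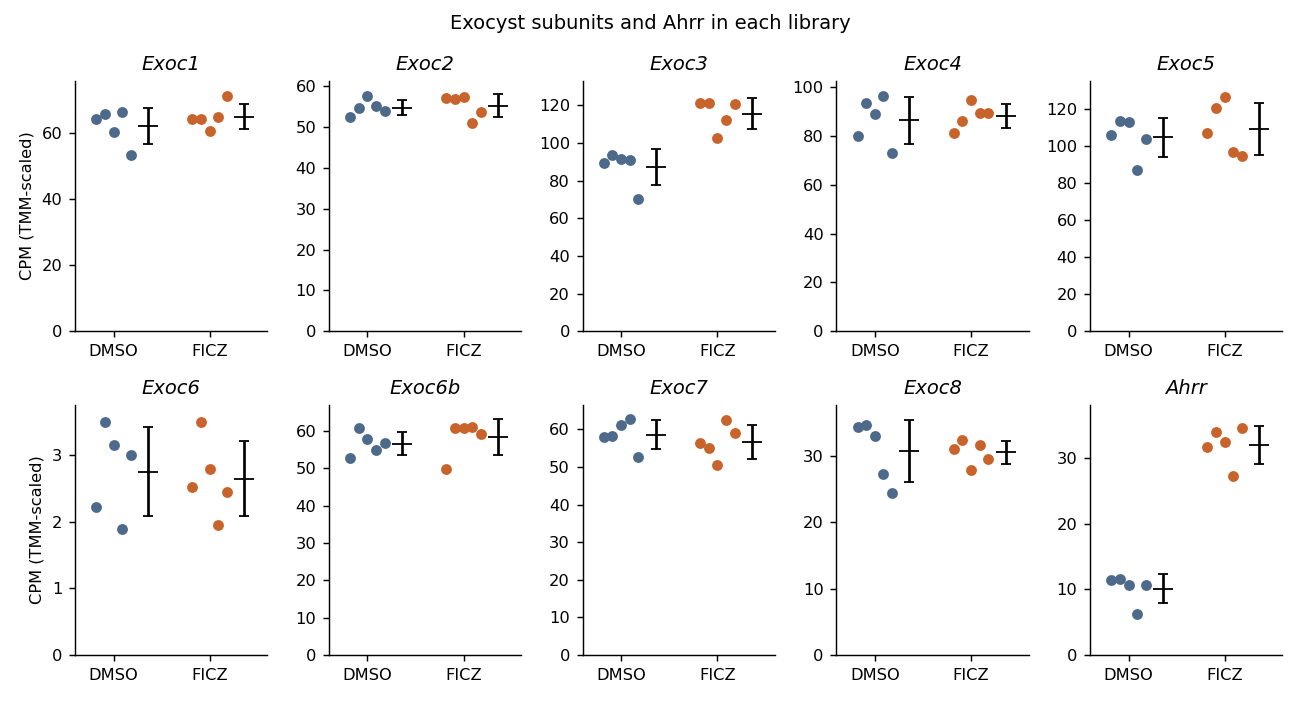
CPM (TMM-scaled, linear axes from 0) of the 9 exocyst subunits and Ahrr in each library, with DMSO in blue and FICZ in orange, points ordered by replicate number, and black bars for mean and SD (n = 5). Exoc3 and Ahrr have all FICZ points above all DMSO points, while the points of the other 8 subunits overlap between the groups.

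The other members of the first subcomplex were Exoc1, Exoc2 and Exoc4. Exoc1 (chr5:76529311-76570294, plus strand), the Sec3 subunit that binds phosphoinositides of the plasma membrane, ranged from 53.3 to 66.4 CPM in DMSO and from 60.6 to 71.4 CPM in FICZ. Its log2 fold change was 0.07 (SE 0.080, 95% interval -0.11 to 0.24), and the only pair that differed by more than 0.04 was pair 5, with 0.42. Like Exoc3, it was lowest in DMSO 5. Exoc2 (chr13:30813919-30974093, minus strand), the Sec5 subunit that binds the GTPases RalA and RalB, averaged 54.8 ± 1.86 CPM with vehicle and 55.3 ± 2.77 CPM with FICZ. It had the smallest SD relative to its mean of the subunits in DMSO, and a log2 fold change of 0.01 (SE 0.0648, 95% interval -0.13 to 0.15). Exoc2 is on the same chromosome as Exoc3 but far from Ahrr. Exoc4 (chr6:33249085-33973979, plus strand), the Sec8 subunit, ranged from 72.9 to 96.4 CPM in DMSO and from 81.2 to 94.8 CPM in FICZ, with a log2 fold change of 0.03 (SE 0.0878, 95% interval -0.16 to 0.22). Its FICZ values lay within its DMSO values. The signs of Exoc2 and Exoc4 turned in 5 and 3 of 20 alternatives, and those of Exoc6 and Exoc8 in 2 and 6, so they are not read.

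In the second subcomplex all log2 fold changes were within 0.07 of 0. Exoc5 (chr14:49004090-49066653, minus strand), the Sec10 subunit, averaged 104.5 ± 10.8 CPM with vehicle and 109.0 ± 14.2 CPM with FICZ. Its log2 fold change was 0.06 (SE 0.105, 95% interval -0.17 to 0.29). It was higher with FICZ in 4 of 5 pairs and the groups overlapped. Exoc6 (chr19:37550418-37684059, plus strand), the Sec15 subunit that binds RAB11, was the scarce member, with 82 to 174 counts per library. It ranged from 1.89 to 3.50 CPM in DMSO and from 1.96 to 3.50 CPM in FICZ, and its log2 fold change of -0.06 had the widest error of the subunits (SE 0.213, 95% interval -0.52 to 0.41). A change of the size seen for Exoc3 was close to the edge of what the interval of Exoc6 allowed. Its CV between libraries was 24.3% in DMSO and 21.4% in FICZ, and with the replicate block its SE was 0.128.

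Its paralog Exoc6b (chr6:84618487-85069513, minus strand), which can take the place of Exoc6 in the complex, averaged 56.6 ± 3.00 CPM with vehicle and 58.3 ± 4.84 CPM with FICZ, with a log2 fold change of 0.04 (SE 0.0778, 95% interval -0.13 to 0.21). FICZ 1 held the low value, 49.8 CPM, and the other FICZ libraries were between 59.3 and 61.0 CPM. Exoc7 (chr11:116288001-116307233, minus strand), the Exo70 subunit that binds phosphoinositides of the plasma membrane, averaged 58.6 ± 3.86 CPM with vehicle and 56.7 ± 4.51 CPM with FICZ. Its log2 fold change was -0.05 (SE 0.0789, 95% interval -0.22 to 0.12), with 1 of 5 pairs higher. Exoc8 (chr8:124893108-124897705, minus strand), the Exo84 subunit, also a Ral effector and annotated as a single exon, averaged 30.8 ± 4.63 CPM with vehicle and 30.6 ± 1.78 CPM with FICZ. Its log2 fold change was -0.01 (SE 0.107, 95% interval -0.24 to 0.22), and DMSO 5 was again the lowest library. Words of 50 bases were searched on both strands of the transcripts of other genes. Of those of Exoc7, 5.38% also occur in Gm26730 and in no other gene, and 2.80% of those of Exoc5 occur in Ap5m1 and others. On the genome 293 exonic bases of Exoc7 lie opposite Gm26730 and 528 of Exoc5 opposite Ap5m1, whose reads cannot be told apart from theirs without strand. Exoc3 shared 0% of its words and overlapped no annotated exon of another gene.

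**Figure D2:**
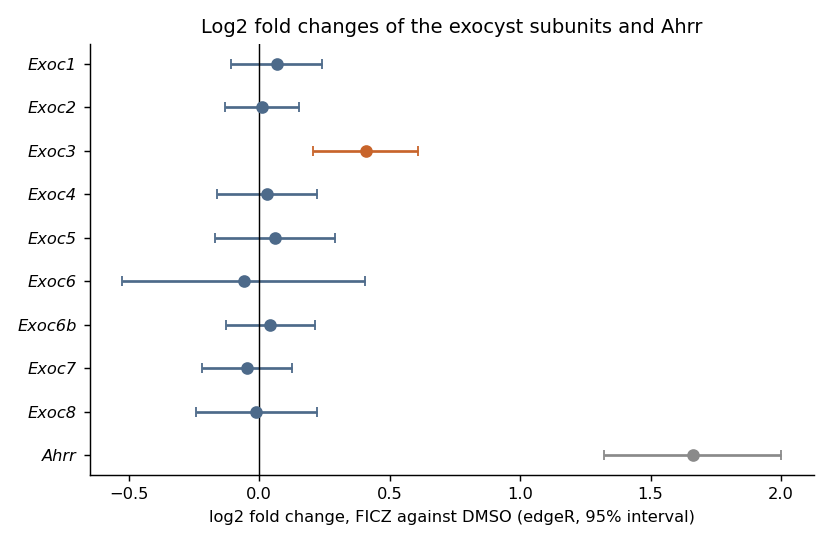
Log2 fold change (x axis) of FICZ against DMSO for each exocyst subunit and Ahrr, with 95% intervals from edgeR over 5 libraries per group. Exoc3 (orange) at 0.41 and Ahrr (grey) at 1.66 have intervals above 0, and the intervals of the other 8 subunits (blue) cross 0. The intervals are not adjusted for the number of genes, and Exoc3 was chosen with its values in view. The adjusted p (edgeR) was 0.937 for Exoc3 and 0.00324 for Ahrr.

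The median log2 fold change of the other 8 subunits was 0.02, beside 0.01 over all genes tested. For 7 of those 8 the upper end of the 95% interval was at or below 0.29, under the estimate of 0.41 for Exoc3, and for Exoc6 it was 0.41. The interval of Exoc3 itself began at 0.208. Those of Exoc1, Exoc4, Exoc5, Exoc6, Exoc6b and Exoc8 reached above that, and those of Exoc2 and Exoc7 did not. Intervals of this width leave room for smaller changes in either direction. Exoc3 was then set against the mean log2 CPM of the other 8 subunits within each library, which takes out anything that scales a whole library. The excess of Exoc3 was 1.15, 1.06, 1.06, 1.21 and 0.865 in DMSO 1 to 5 and 1.59, 1.46, 1.28, 1.47 and 1.55 in FICZ 1 to 5. All FICZ values were above all DMSO values, and the mean went from 1.07 ± 0.130 to 1.47 ± 0.119 (SD, n = 5 each), a difference of 0.40 on the log2 scale. The same quantity for each of the other subunits differed between the groups by -0.12 for Exoc7 to 0.01 for Exoc1, with overlapping groups in each case. Exoc7 was the only one of them with the same sign in all pairs, lower in 5 of 5, and the mean it was set against includes Exoc3.

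Counted as a share of the counts on the 9 subunits, Exoc3 took 16.5%, 16.2%, 16.1%, 16.7% and 14.3% in DMSO 1 to 5. In FICZ 1 to 5 it took 21.3%, 20.2%, 17.6%, 19.6% and 20.8%. FICZ 3 was the closest to the DMSO libraries, and no FICZ value reached into them. The summed CPM of the other 8 subunits was 456.6 ± 25.1 in DMSO and 465.8 ± 14.1 in FICZ, with overlapping groups. With Exoc3 included it was 543.6 ± 33.9 and 581.3 ± 12.3. These groups overlapped too, with DMSO up to 578.7 and FICZ from 570.5, and DMSO 5 was the lowest at 490.6.

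**Figure D3:**
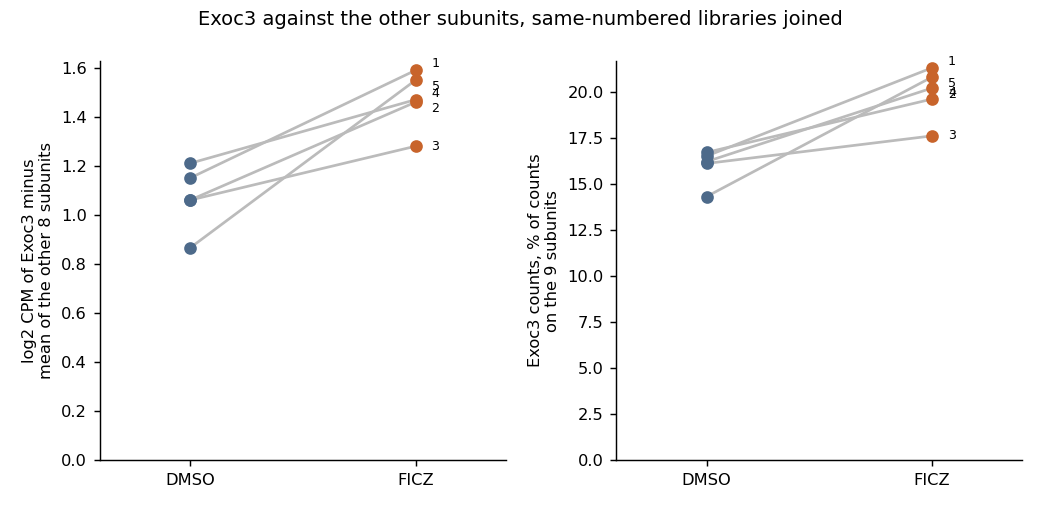
Left, log2 CPM of Exoc3 minus the mean of the other 8 subunits in each library; right, Exoc3 counts as a percent of the counts on the 9 subunits, with same-numbered DMSO and FICZ libraries joined and the replicate number beside the FICZ point. All 5 lines go up on both axes, from 0.865 to 1.21 in DMSO to between 1.28 and 1.59 in FICZ on the left.

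Per length of annotated exons, Exoc3 and Exoc7 were the most abundant subunits in DMSO, at 14.5 ± 1.6 and 13.4 ± 0.884 CPM per kb, and their libraries overlapped. Exoc2 followed at 7.87 ± 0.267 CPM per kb, below every library of Exoc7. Exoc4, Exoc8, Exoc5 and Exoc1 came next at 6.84, 6.70, 5.81 and 5.16 CPM per kb, each overlapping its neighbour in this order, as did Exoc2 and Exoc4. Exoc6b at 3.74 ± 0.198 and Exoc6 at 0.777 ± 0.189 CPM per kb were each apart from the one above. In FICZ the order was the same, but Exoc3 at 19.3 ± 1.37 CPM per kb no longer overlapped Exoc7 at 13 ± 1.03 CPM per kb. The order depends on the length used, at the top and below it. With the longest coding transcript as length, the DMSO rank of Exoc8 went from 5 to 8, of Exoc2 from 3 to 5 and of Exoc6b from 8 to 6. Divided by the longest coding transcript, the DMSO levels of Exoc1, Exoc4, Exoc3 and Exoc7 were 18.4, 17.9, 17.7 and 17.6 CPM per kb and overlapped, and in FICZ Exoc3 at 23.5 ± 1.68 overlapped Exoc1 at 19.3 ± 1.16 CPM per kb. Exoc6 was the lowest subunit on both scales.

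**Figure D4:**
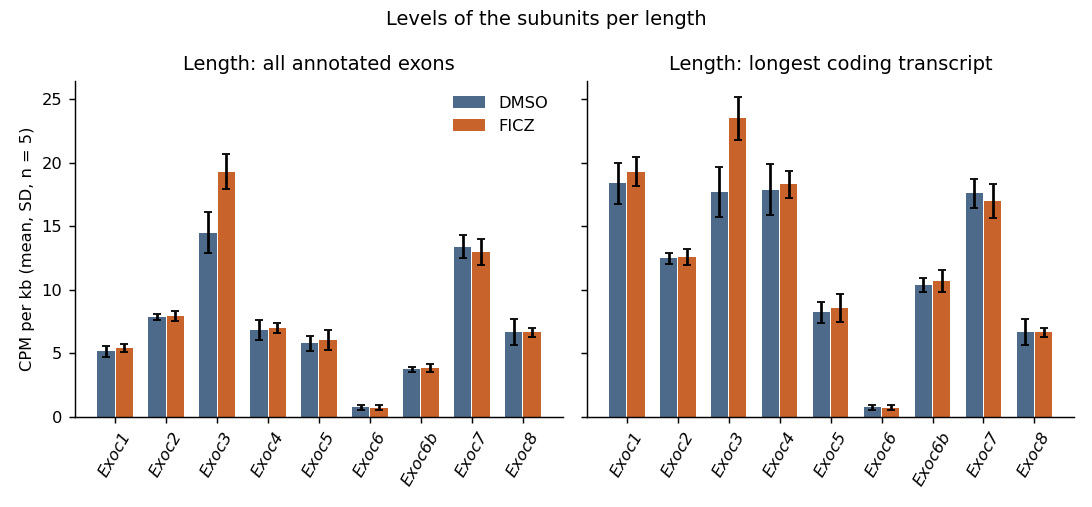
Mean CPM per kb (bars, SD as error bars, n = 5) of the 9 subunits in DMSO (blue) and FICZ (orange), with length taken as all annotated exons (left) or as the longest coding transcript (right). Exoc1 goes from 5.16 to 18.4 CPM per kb in DMSO with the change of length, and Exoc6 is at 0.777 on both scales.

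Ahrr was at 11.4, 11.6, 10.7, 6.24 and 10.6 CPM in DMSO 1 to 5 and at 31.7, 34.1, 32.5, 27.4 and 34.6 CPM in FICZ 1 to 5. The groups were far apart, with DMSO 4 low among the vehicle libraries. Ahrr rose by 1.66 on the log2 scale (SE 0.155, edgeR adjusted p = 0.00324), from 10.1 ± 2.21 to 32.1 ± 2.87 CPM. In CPM the added amount was 21.9 for Ahrr and 28.5 for Exoc3, from a far higher starting level of Exoc3. From pair 1 to pair 5 the added amount was 20.3, 22.5, 21.8, 21.1 and 24.0 CPM for Ahrr and 32.2, 27.5, 11.3, 21.4 and 50.3 CPM for Exoc3. Both were highest in pair 5, and the amounts of Exoc3 varied far more. On the log2 scale the highest difference was in pair 4 for Ahrr, at 2.12, and in pair 5 for Exoc3, at 0.78, the pairs whose DMSO libraries held the low values of these genes. Counts per gene cannot tell reads of transcripts that run on past the end of Ahrr apart from those of transcripts that begin at the Exoc3 promoter, and their part in the Exoc3 counts was not tested.

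On the other side of Ahrr, Pdcd6, a calcium-binding protein of vesicle transport, lies 11177 bases away, and its log2 fold change was 0.10 (SE 0.0727). Its RefSeq promoter window held 3 matches to GCGTG, as many as that of Ahrr. Sdha, a subunit of mitochondrial complex II, was at 0.07 (SE 0.0861), and Ccdc127 at 0.07 (SE 0.0708). Slc9a3, a sodium-proton exchanger of epithelia that is next to Exoc3 on the side away from Ahrr, had at most 5 counts in a library and was not tested.

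Of the 18 genes of the table within 500 kb of Ahrr other than Ahrr, 14 were tested and 0 were past the threshold in edgeR, DESeq2 or limma-voom, with and without the replicate block where it was run. In edgeR 2 of the 14 had an unadjusted p at or under 0.05, Exoc3 and Nkd2, and the same 2 had every FICZ library above every DMSO library, beside 4.82% and 0.351% of all genes. Exoc3 is 1 of these 2 and its values were in view when the set was chosen. With the replicate block Tppp also had an unadjusted p at or under 0.05 (edgeR, adjusted p = 0.929), and 354 of 14251 genes were higher at such a p. Over all genes, 0.0211% passed the threshold in edgeR without the block, and 0 of 14 is near that share. Nkd2, an inhibitor of Wnt signalling 363486 bases from Ahrr on the same strand, was at 32.5, 34.3, 35.1, 38.4 and 21.0 CPM in DMSO and 45.4, 40.5, 40.3, 55.9 and 45.1 CPM in FICZ. As for Exoc3, DMSO 5 was the lowest library, and the log2 fold change was 0.49 (SE 0.152, adjusted p = 0.999 in edgeR). Tppp, a tubulin-binding protein, had 0.38 (SE 0.260) and, like Trip13, was higher with FICZ in 5 of 5 pairs with overlapping groups. Brd9, Trip13, Erap1 and Cast were between 0.07 and 0.12. Cep72, Zfp825, Zfp72 and Slc12a7 were at -0.05, -0.06, -0.18 and -0.27 (SE 0.163, 0.101, 0.178 and 0.219). Without DMSO 5 these were 0.01, -0.002, -0.02 and -0.03, and Tppp was at 0.60. The median over the 14 was 0.07, and 0.03 without DMSO 5, beside 0.01 over all genes.

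**Figure D5:**
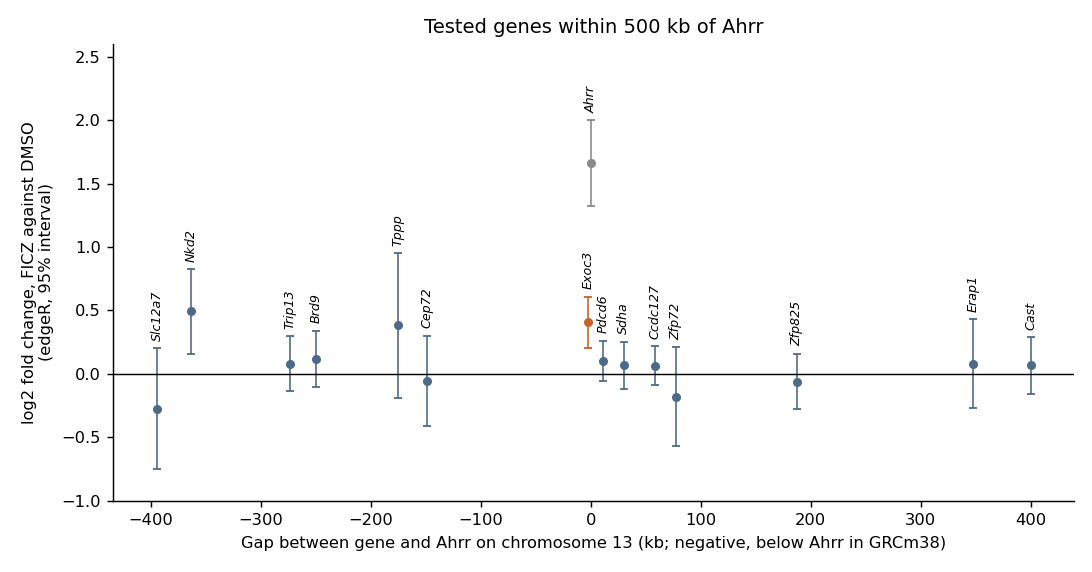
Log2 fold change (y axis, edgeR, 95% intervals) of the tested genes within 500 kb of Ahrr against the gap to Ahrr in kb, negative for genes below Ahrr in GRCm38. Apart from Ahrr (grey, 1.66), the intervals of Exoc3 (orange, 0.41) and Nkd2 (0.49) lie above 0, and those of the other 12 genes cross 0. The intervals are not adjusted for the number of genes, and the adjusted p (edgeR) was 0.937 for Exoc3 and 0.999 for Nkd2.

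None of the genes that act with the exocyst passed the threshold either, beside 0.0211% of all genes tested in edgeR. In lists this short, 0 calls is near that share. Of 24 small GTPases and regulators of the complex, all tested, 14 had positive and 10 negative log2 fold changes, with a median of 0.01, and edgeR, DESeq2 and limma-voom called 0. The values ran from -0.27 for Ralgps1 (SE 0.270), an exchange factor for Ral, to 0.18 for Rgl1 (SE 0.0786), another Ral exchange factor. Rgl1 was the only one of the 24 with an unadjusted p at or under 0.05 in edgeR, beside 4.82% of all genes, so this count is near that share. It was higher in 5 of 5 pairs, as 4.32% of all genes were, with overlapping groups. Without DMSO 5 Ralgps1 was at 0.01 and Rgl1 at 0.13. Of 15 tested genes of the fusion machinery at the plasma membrane, 0 were called by any of these tools and 0 had an unadjusted p at or under 0.05. Over all genes these shares were 0.0211% and 4.82% in edgeR, and 0 of 15 is near both. The median of the 15 was 0.05, with a range from -0.12 for Stxbp2, a protein that binds syntaxins, to 0.14 for Myo1c, a myosin of vesicle delivery. Without DMSO 5 these 2 were at 0.01 and 0.004. Among 3 tested paralogs, Tnfaip2 was at 0.17 (SE 0.142; higher in 5 of 5 pairs, groups overlapping), Exoc3l4 at 0.04 (SE 0.108) and Exoc3l, at less than 1 CPM, at -0.50 (SE 0.346). Without DMSO 5 Tnfaip2 was at 0.10.

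Other tethering complexes served as a comparison for the exocyst. None of the 24 tested genes of the COG, GARP and EARP, NRZ, and HOPS and CORVET complexes was called by edgeR, DESeq2 or limma-voom, 0 had an unadjusted p at or under 0.05 in edgeR, and 0 had groups that did not overlap. Over all genes, edgeR called 0.0211% and 4.82% had such a p. The groups were apart for 0.351% of all genes in the higher and 0.119% in the lower direction. In a list of 24 genes, counts of 0 are near these shares. The median log2 fold change of the 24 was 0.05. COG, a tether of vesicles within the Golgi, ran from -0.02 for Cog4 to 0.10 for Cog1, and GARP and EARP, tethers at the trans-Golgi and endosomes, from -0.03 for Vps51 to 0.13 for Vps50. NRZ, a tether at the endoplasmic reticulum, ran from 0.05 for Nbas to 0.07 for Rint1, and HOPS and CORVET, tethers at lysosomes and endosomes, from -0.02 for Vps11 to 0.11 for Vps8. The log2 fold change of Exoc3 lay above all of these. Among 5 listed AHR targets 3 rose past the threshold, namely Cyp1a1 (3.25), Ahrr and Tiparp (0.91), while Cyp1b1 at 0.62 and Nqo1 at 0.60 did not pass in edgeR. These 3 were the only calls of edgeR among all 14251 genes (0.0211%). With the replicate number as a block in edgeR, Tiparp no longer passed (adjusted p = 0.0509) and Nqo1 did (adjusted p = 0.0352). DESeq2 called 4 of the 5, beside 14 of the 14251 genes, and 5 with the block, beside 25. The authors had already reported Cyp1a1, Cyp1b1, Ahrr and Tiparp as higher with FICZ in this experiment, so these counts are a description.

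Within groups, after each group's mean was taken out, the highest values of Pearson's r of Exoc3 with other subunits were those with Exoc1 (r = 0.84, Spearman's rank correlation 0.32), Exoc8 (r = 0.76, rank correlation 0.62) and Exoc7 (r = 0.65, rank correlation 0.31) over the 10 libraries. By rank the order differed, with Exoc2 (0.418) and Exoc6 (0.394) after Exoc8 and above Exoc1 and Exoc7. These values are descriptions over libraries that differ in makeup. Without DMSO 5 the values of r were 0.56, 0.39 and 0.39. The median r of the 8 pairs with Exoc3 was 0.30, and of the 28 pairs among the other subunits 0.19. Without DMSO 5 these medians were 0.137 and -0.0008. With Ahrr the r of Exoc3 was -0.04 (rank correlation 0.31), and 0.157 without DMSO 5. Among 9553 other genes at 10 CPM or more, Aifm1, Cenpu, Dnajb2, Dpcd and Ncaph2 were the most like Exoc3, with r between 0.979 and 0.983 and rank correlations between 0.685 and 0.952, and with r between 0.929 and 0.947 without DMSO 5. Their own log2 fold changes between FICZ and DMSO were 0.05 to 0.13, below that of Exoc3. These genes were picked by r over the same 10 libraries, so high values, also without DMSO 5, follow in part from that choice.

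The cells carried the markers of ASPCs, and the low Exoc3 of DMSO 5 came with a high level of liver genes. All 10 ASPC markers were present, with Pdgfra at 1320 CPM after DMSO and 1390 CPM after FICZ, Col3a1 as the most abundant, and 0 past the threshold (from Dcn at -0.20 to Dpp4 at 0.12, or 0.02 and 0.21 without DMSO 5). Cd34 was at -0.18 (-0.16 without DMSO 5), with 0 of 5 pairs higher with FICZ and overlapping groups. With the replicate block 1 of the 10, Cd34, was lower at an unadjusted p at or under 0.05 (edgeR), as were 309 of 14251 genes. The 6 immune markers summed to between 0.402 and 2.61 CPM, with Ptprc, which encodes CD45, at most at 1.70 CPM, and Pecam1, which encodes CD31, was at 1.48 CPM after DMSO and 1.01 CPM after FICZ. Macrophage markers summed to between 22.6 and 47.5 CPM, led by Csf1r, and were highest in DMSO 5. Of the 7, 6 had negative log2 fold changes (median -0.63; from Cd163 at -1.40 to Csf1r at 0.07), and 2 had an unadjusted p at or under 0.05, beside 3.49% of all genes in that direction. Without DMSO 5 the median was -0.31, 5 were negative and 0 had such a p, beside 102 of 14240 genes in that direction. With the replicate block 1 did, beside 309 of 14251 genes. Endothelial markers summed to between 65.1 and 87.8 CPM, mostly Tek, mesothelial markers to between 63.7 and 84.9 CPM, mostly Wt1, and mature adipocyte markers to between 52.7 and 101.9 CPM, led by Fabp4 and with Lep at 0 in every library. Of the endothelial markers 5 of 6 had negative log2 fold changes (median -0.46, or -0.34 without DMSO 5), from Emcn at -0.81 to Tek at 0.02. Emcn without DMSO 5 was at -0.467. With the replicate block 2 were lower at an unadjusted p at or under 0.05 (edgeR), as were 309 of 14251 genes. These were Emcn and Pecam1, each with 0 of 5 pairs higher with FICZ. Of 5 mesothelial markers 2 had positive values (median -0.04, or -0.11 without DMSO 5), from Krt19 at -0.33 to Upk3b at 0.31. Without DMSO 5 these were at -0.56 and 0.29. Upk3b was higher in 5 of 5 pairs with overlapping groups. With the replicate block it was higher at an unadjusted p at or under 0.05 (edgeR), as were 354 of 14251 genes. Of 5 tested adipocyte markers 3 had positive values (median 0.01, or 0.09 without DMSO 5), from Cidec at -1.33 to Fabp4 at 0.24. Cidec was at -0.745 without DMSO 5. In edgeR 1 of these 5, Cidec, was lower at an unadjusted p at or under 0.05, beside 3.49% of all genes. With the replicate block Cidec was so again, beside 309 of 14251 genes. Without DMSO 5, 1 of the 5 was lower at such a p, beside 102 of 14240 genes. None of these lists had a gene past the threshold, and their part in the values of the subunits was not tested.

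The 10 hepatocyte markers, led by Alb, summed to 3216, 1174, 1261, 2905 and 7842 CPM in DMSO 1 to 5 and to 1749, 1513, 1679, 1150 and 1545 CPM in FICZ 1 to 5. DMSO 5 was the highest by far and the groups overlapped. All 10 had negative log2 fold changes, from -1.24 for Serpina1a to -1.05 for Apoh, with 0 past the threshold and 10 with an unadjusted p at or under 0.05, as 3.49% of all genes had in that direction. With the replicate block 0 of the 10 did, beside 309 of 14251 genes in that direction, and the median went from -1.12 to -0.77. Without DMSO 5 the 10 values lay between -0.64 and -0.46, and 0 had such a p, beside 102 of 14240 genes in that direction. For 10 genes, counts of 0 are near these shares. Within groups, Exoc3 had r = -0.71 with Alb, and r = -0.14 without DMSO 5. With Alb as a covariate the log2 fold change of Exoc3 was 0.32, and the difference of Exoc3 from the other subunits was 0.36, or 0.35 without DMSO 5.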

How the data were processed

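ASPCs from mouse gWAT were treated with DMSO or FICZ and bulk RNA was sequenced. The authors aligned reads with STAR 2.7.7 to mm10 and deposited whole-number counts for each gene symbol, not normalized. The counting program, annotation and handling of strand are not given in the sources used here. Of the symbols, 96.5% matched GENCODE (GRCm38), which gave positions and lengths. Promoter windows came from RefSeq.

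Counts were fitted over 14251 genes with edgeR 4.0.16 (quasi-likelihood, TMM, robust, filterByExpr; R 4.3.3) with Benjamini-Hochberg adjustment over all genes and a threshold of 0.05. DESeq2 1.42.0 and limma-voom (limma 3.58.1) were alternatives. Log2 CPM used a prior count of 2. Intervals are 95% and come from the fit. Depth ranged from 38328611 to 50210111 counts, so that 3 counts correspond to at most 0.0783 CPM (counting error only). Libraries of a group differed by more than sampling noise in each of 20 pairs (chi-square per degree of freedom 16.5 or more).

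Deviations of same-numbered libraries from their group means correlated at 0.154 to 0.317 across genes (other pairs, mean -0.0599), so replicate number was used as a block in an alternative.

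The subunits, gene lists and rules were chosen with earlier results of these data known. Named were all subunits, the tested genes within 500 kb of Ahrr, each list's extremes and calls, and the 5 genes most like Exoc3 by Pearson's r of group-centred log2 CPM. Scripts were tested on simulated data.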

Additional observations from a re-analysis of the deposited data

Results flagged for a closer look

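In 22 sets of 5 libraries, made of the log2 CPM of the 9 subunits and Ahrr and of the excess of Exoc3 over the other subunits in each treatment, 3 held a library that stood apart from the other four by the gap to its nearest neighbour as a share of the range (Dixon's limit 0.710 for 5 samples). Chance gives about 1.1 such sets. Exoc3 was flagged for its low level in DMSO 5, with a share of 0.829, and the value without that library is given above. Exoc6b was flagged for its low level in FICZ 1, with a share of 0.862, and without that library its log2 fold change was 0.10 in place of 0.04. Ahrr was flagged for its low level in DMSO 4, with a share of 0.857, and without that library its log2 fold change was 1.53 (edgeR adjusted p = 0.000127).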

How the results depend on the processing

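Over 10 other settings the log2 fold change of Exoc3 stayed between 0.32 and 0.41, with adjusted p between 0.083 (DESeq2) and 1, and without 1 library between 0.34 and 0.45, with adjusted p between 0.392 and 1. The subunits past the threshold were 0 in all 20 alternatives. The genes past the threshold among all genes, 3 in edgeR, were 8 with the replicate block, 16 in DESeq2 and 26 in DESeq2 with the block (14 and 25 among the 14251 genes that edgeR tested), and 1 to 4 when 1 library was left out (1 without DMSO 1, DMSO 2, FICZ 1, FICZ 2 or FICZ 3); the cause was not tested. In edgeR the block also cost Tiparp its call (adjusted p = 0.0509) and gave Nqo1 one (adjusted p = 0.0352), and changed no other call among the subunits, the neighbours of Ahrr and the gene lists. With Alb as a covariate the log2 fold changes of Slc12a7, Cep72, Zfp72, Zfp825 and Cast were 0.0835, 0.0667, 0.0209, 0.0327 and -0.0433, opposite in sign to those above, and that of Nkd2 was 0.32. Erap1 and Tppp were then at 0.3048 and 0.6018, and Brd9, Trip13, Sdha and Ccdc127 at 0.02296, 0.005725, 0.02004 and 0.04146. Exoc4 was at -0.05 with this covariate and at -0.03 without DMSO 5. When 1 library was left out, Cep72 ran from -0.133 to 0.0391, Erap1 from -0.0065 to 0.2495, Slc12a7 from -0.409 to -0.0332, Zfp72 from -0.268 to -0.0178, Zfp825 from -0.0947 to -0.00203, Tppp from 0.221 to 0.597, Brd9 from 0.0514 to 0.18, Trip13 from 0.0153 to 0.119, Sdha from 0.0161 to 0.104, Ccdc127 from 0.018 to 0.0982, Pdcd6 from 0.06 to 0.126 and Cast from -0.0151 to 0.1044. The subunits other than Exoc3 lay between -0.179 (Exoc6 without FICZ 2) and 0.101 (Exoc5 without FICZ 4). The median of the other 8 subunits ran from -0.02 with Alb as a covariate to 0.05 without DMSO 2, so its sign is not read. Of 18 levels per length, 14 moved by more than 1 SD with the longest coding transcript, an alternative chosen after seeing the data. Exoc6 had the fewest counts of the subunits, 82 to 174 per library, and the part of depth in the width of its interval was not tested.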
